A study of Homo sapiens with 30 samples.

Results

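A ribosome starts as a precursor ribosomal RNA that RNA polymerase I transcribes in the nucleolus. Small nucleolar ribonucleoproteins (snoRNPs) modify that precursor, and separate sets of assembly factors fold and cut it into the small and the large ribosomal subunit while ribosomal proteins join. Making ribosomes is among the most costly activities of a growing cell, and many of the genes for it are textbook targets of the transcription factor MYC. In the intestine, ribosome production is high in dividing crypt cells and lower in differentiated cells.

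The genes described here are 38 listed ribosome biogenesis genes, taken from the array by exact gene symbol. Of these, 29 had 1 or more probe sets with only that symbol, out of 11963 genes measured in this way. The 29 genes had 44 probe sets: 20 genes had 1, 4 genes had 2, 4 genes had 3 and 1 gene had 4. NOP56, DKC1, BOP1 and PPAN were covered only by probe sets with several symbols and are not used here, and NOP58, LYAR, GNL3, EBNA1BP2 and DDX18 had no listed probe set. By role, the measured genes were 2 of 2 RNA polymerase I subunits (POLR1B, POLR1C), 4 of 7 snoRNP proteins (FBL, GAR1, NHP2, NOLC1), 4 of 6 other nucleolar proteins (NCL, NPM1, DDX21, RRP1B), 12 of 12 small subunit factors and 7 of 11 large subunit factors.

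They were measured in a co-culture of 2 human lines from colon cancer, Caco-2, which differentiates towards absorptive enterocytes, and HT29-MTX, a mucus-making line obtained with methotrexate. The mixture held 75% Caco-2 and 25% HT29-MTX cells and had stood for 14 days on Transwell inserts, which are porous supports with a compartment above and below the cells. MWCNT, which are multi-walled carbon nanotubes, or TiO2-NB, which are titanium dioxide nanobelts, were given to the upper compartment at 10 or 100 µg/ml, and the RNA was taken 1 or 24 h later. The control cells had fresh medium without particles, so the 10 groups were a control and 4 exposures at each time, with 3 biological replicates and 30 arrays in all. The labels do not say whether the replicates came from separate pools of cells. The p-values of the fit to all 30 arrays rest on the spread between these replicates within groups, shared over the 10 groups. A tumour-line mixture holds none of the other cell types of the gut wall.

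Levels are log2 values on the authors' RMA scale, differences are log2 differences, and each ± value after a difference is the standard error (SE) of the limma fit to all 30 arrays. Each group had n = 3. A gene was called where limma's Benjamini-Hochberg adjusted p, over 22215 probe sets, was under 0.05, and a gene with several probe sets stands at the one with the highest mean level. Array medians ran from 6.449 to 6.492. The mean of 6 epithelial markers lay between 12.55 and 12.71 on every array (EPCAM averaged 13.11). That of 7 leukocyte markers lay between 5.867 and 6.075, but these markers were uneven: PTPRC averaged 3.626, CD14 6.9 and LYZ 11.31. Among the leukocyte markers 2, 2, 2 and 3 were called higher in the 4 exposures at 1 h. The ribosomal RNA control probe sets were less even. The probe set for the 5′ part of 18S RNA averaged 8.678 in the 1 h controls and was above that by 1.17 and 1.51 with 10 and 100 µg/ml MWCNT, and by 0.841 and 0.801 with 10 and 100 µg/ml TiO2-NB. Its exact permutation p was 0.1, 0.1, 0.4 and 0.1, where 0.1 is the smallest that 3 against 3 arrays can give. The probe set for the 5′ part of 28S RNA was also higher, by 0.471, 0.652, 0.441 and 0.34 in the same order (exact permutation p 0.1, 0.1, 0.2 and 0.1). That for the middle of 28S RNA differed by -0.029, -0.138, -0.00312 and -0.113 (exact permutation p 0.7, 0.1, 0.9 and 0.1). GAPDH and ACTB did not show such a shift between their 3′ and 5′ probe sets. The part of the 18S signal in the 1 h results was not tested beyond the fits with it as a covariate given below, and that of the 28S signal was not tested.

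After 1 h of exposure a small, recurring group of the genes differed from control. RRS1, DDX21 and NOP2 rose in all 4 exposures, by 0.25 to 0.36 on the log2 scale. DDX10 and WDR12 fell in all 4, by 0.16 to 0.24 and by 0.15 to 0.19. NIP7 rose in 3 exposures, UTP20, RRP12, POLR1B and POLR1C rose in some, and the other 19 genes were called in none. No gene was called in opposite directions in 2 exposures. In RNA from a mixed culture, fewer cells of a type and less RNA per cell cannot be told apart.

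With 10 µg/ml MWCNT 7 of the 29 genes were called (5 higher, 2 lower), which is 24.1%, beside 7.86% of all genes. For 100 µg/ml MWCNT it was 9 (7 higher, 2 lower), beside 9.44% of all genes. For 10 µg/ml TiO2-NB it was 6 (4 higher, 2 lower), beside 9.52% of all genes. For 100 µg/ml TiO2-NB it was 7 (5 higher, 2 lower), beside 10.5% of all genes. The share of all genes called higher was 2.71%, 3.79%, 3.02% and 3.07% in the same order, and the share called lower 5.15%, 5.65%, 6.5% and 7.44%. As a group the genes moved little: their median difference was 0.04, 0.05, 0.08 and 0.04, beside medians of -0.018, -0.014, 0.004 and -0.0039 over all genes. The 4 exposures were set against the same 3 control arrays, so their likeness is not independent evidence. A test of any difference among the 5 groups at 1 h called 10 of the 29 genes, beside 10.2% of all genes.

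These counts lean on the spread shared by all 10 groups. When the spread came from the 2 compared groups alone, 0, 1, 1 and 3 genes were called in the same order. With the 18S level as a covariate, 4, 4, 6 and 5 were called. For 10 µg/ml MWCNT the earlier calls that stood were DDX10, NOP2 and RRS1, so the 4 include a gene not called without the covariate.

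**Figure D1:**
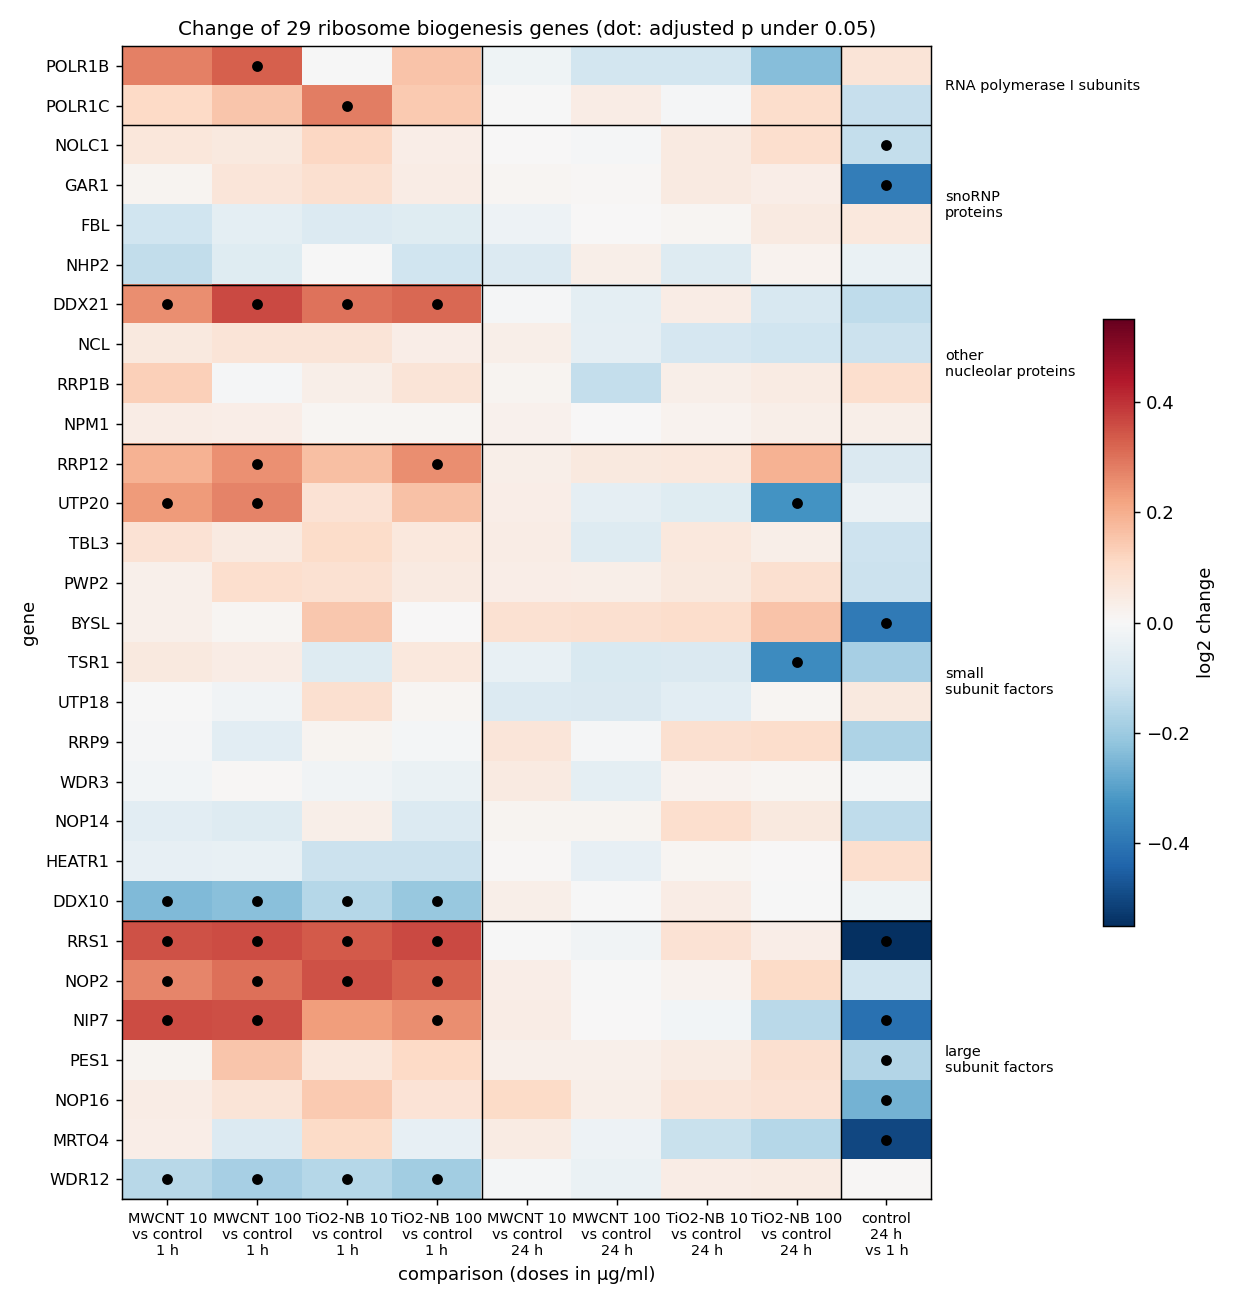
Log2 difference from control of the 29 measured ribosome biogenesis genes, ordered by role, in the 8 exposures and in the 24 h controls against the 1 h controls; the colour scale runs from −0.55 to 0.55 and a dot marks an adjusted p under 0.05. Dots at 1 h stand for 10 genes, dots at 24 h for UTP20 and TSR1 in 100 µg/ml TiO2-NB, and the last column holds 8 genes that were lower in the 24 h controls.

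The promoters of these genes were searched for the letters CACGTG, called an E-box, which MYC binds. The level of MYC also rose at 1 h, and whether MYC acted on these genes was not tested. Windows from 250 bases before to 50 bases after a transcript start were taken from RefSeq (build GRCh38.p14), and 25 of the 29 genes had 1 or more. The E-box reads the same on both strands. It was present in 12 of the 25 genes (48%) and in 12 of their 29 windows (41.4%), beside 25.5% of the windows of other measured pathway genes, 8.76% of those of all genes on the array and 7.26% of all 35116 windows. It was in 3 of the 6 genes with a window that rose at 1 h and in 9 of the 17 called in no exposure at 1 h, and neither DDX10 nor WDR12, which fell, held it. CCGGAAG, the core bound by ETS factors, was searched on both strands too. It was in 44.8% of the genes' windows, beside 38.2% of those of other measured pathway genes and 13.1% of those of genes on the array (the letters of these motifs cannot overlap). These matches describe letters in a window, not binding. The 6 sequences below are those of the genes with an E-box whose levels differed most among the groups at 1 h or 24 h, each 5′ to 3′ on the gene's strand with the E-box in capitals.

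For UTP20, the 250 bases before the start at chr12:101279855-101280104 (plus strand) hold an E-box that begins at position -10, where the first transcribed base is +1:
UTP20: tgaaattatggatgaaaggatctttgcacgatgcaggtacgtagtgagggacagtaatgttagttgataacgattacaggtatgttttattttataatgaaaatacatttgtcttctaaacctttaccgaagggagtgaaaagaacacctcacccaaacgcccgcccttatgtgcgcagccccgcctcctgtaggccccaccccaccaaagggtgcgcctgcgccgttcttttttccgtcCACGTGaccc

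For the others, 30 bases around the E-box are given. The stretch of DDX21 lies at chr10:68956604-68956633 (plus strand), inside the annotated gene and upstream of a second transcript start, with the E-box at position -31 from that start. The stretches of NOP2 at chr12:6568242-6568271 (minus strand) and MRTO4 at chr1:19251807-19251836 (plus strand) lie in the transcribed 5′ end. That of PES1 at chr22:30591880-30591909 (minus strand) lies just after a transcript start inside the annotated gene (chr22:30576625-30607013), not at the gene's outer 5′ end. The stretch of FBL at chr19:39846356-39846385 (minus strand) spans the transcript start. Counted from the start used, the E-box begins at base 36 for NOP2, 14 for PES1, 15 for MRTO4 and 7 for FBL.
DDX21: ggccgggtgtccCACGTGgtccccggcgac
NOP2: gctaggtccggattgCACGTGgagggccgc
PES1: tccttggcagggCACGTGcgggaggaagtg
MRTO4: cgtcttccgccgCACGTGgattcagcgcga
FBL: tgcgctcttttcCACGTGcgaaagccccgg
DDX21 and NOP2 were among the genes that rose at 1 h in every exposure, UTP20 rose there with both MWCNT doses, MRTO4 and PES1 were lower in the 24 h controls, and FBL was called in none of the comparisons with control.

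Among the large subunit factors, RRS1 had the clearest shift. RRS1 helps to bring the 5S RNA particle into the large subunit precursor. In the 1 h controls RRS1 stood at 9.515, 9.362 and 9.505. It stood at 9.81, 9.793 and 9.826 with 10 µg/ml MWCNT and at 9.838, 9.838 and 9.783 with 100 µg/ml MWCNT. It stood at 9.815, 9.734 and 9.841 with 10 µg/ml TiO2-NB and at 9.854, 9.822 and 9.794 with 100 µg/ml TiO2-NB. All 12 exposed arrays lay above all 3 controls. The differences were 0.35, 0.36, 0.34 and 0.36 (SE 0.046 each), which is 1.26-fold to 1.29-fold, with limma adjusted p of 4.03e-05, 2.69e-05, 4.26e-05 and 1.48e-05.

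NOP2 is the methyltransferase that places a 5-methylcytosine on the large subunit RNA. Its 1 h controls were 7.987, 8.028 and 7.998. The MWCNT arrays were 8.308, 8.229 and 8.285 at 10 µg/ml and 8.459, 8.216 and 8.241 at 100 µg/ml. The TiO2-NB arrays were 8.378, 8.258 and 8.434 at 10 µg/ml and 8.296, 8.322 and 8.371 at 100 µg/ml. Again no exposed array reached down to the controls. NOP2 rose by 0.27, 0.30, 0.35 and 0.33 (SE 0.057 each; limma adjusted p 0.0048, 0.00164, 0.000275 and 0.000585).

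NIP7, a nucleolar protein of precursor RNA processing, varied more between the controls, which were 9.21, 9.078 and 9.38. With MWCNT it stood at 9.588, 9.558 and 9.603 at the low dose and at 9.522, 9.555 and 9.65 at the high dose, all above the controls. With TiO2-NB it stood at 9.47, 9.562 and 9.331 at the low dose, where 1 array lay inside the control range, and at 9.493, 9.406 and 9.532 at the high dose. It rose by 0.36 and 0.35 with 10 and 100 µg/ml MWCNT and by 0.25 with 100 µg/ml TiO2-NB (SE 0.073 each; limma adjusted p 0.00322, 0.00346 and 0.0296). With 10 µg/ml TiO2-NB the difference of 0.23 had an adjusted p of 0.052. None of the 3 NIP7 calls stood with the 18S level as a covariate (adjusted p 0.0794, 0.213 and 0.137), and the TiO2-NB call was also lost without 1 of 4 arrays in turn, control replicate 1 or 2 or exposed replicate 1 or 3.

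WDR12 moved the other way. It is a subunit of the PeBoW complex, which it forms with PES1 and BOP1 and which large subunit maturation needs. The controls were 10.24, 10.26 and 10.17. Its levels were 10.09, 10.05 and 10.06 with 10 µg/ml MWCNT and 10.06, 10.07 and 9.995 with 100 µg/ml MWCNT. With TiO2-NB they were 10.12, 10.07 and 10.0 at 10 µg/ml and 10.01, 10.05 and 10.04 at 100 µg/ml. Every exposed array lay below the lowest control. WDR12 fell by 0.15, 0.18, 0.16 and 0.19 on the log2 scale (SE 0.041 each; limma adjusted p 0.0221, 0.00639, 0.016 and 0.00357). Its partner PES1 was called in none of the exposures at 1 h, and neither were NOP16 and MRTO4, which brings the large subunit factors to 4 called of 7. A less abundant probe set of NOP16 rose with 10 µg/ml TiO2-NB (0.17, adjusted p 0.0334). The WDR12 call with 10 µg/ml MWCNT was lost without control replicate 1 or 2 or exposed replicate 2 or 3, and that with 10 µg/ml TiO2-NB without control replicate 2 or exposed replicate 3. Both MWCNT calls were lost with the 18S covariate, though the differences were no smaller there, at -0.17 and -0.20 (limma adjusted p 0.0693 and 0.0764).

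**Figure D2:**
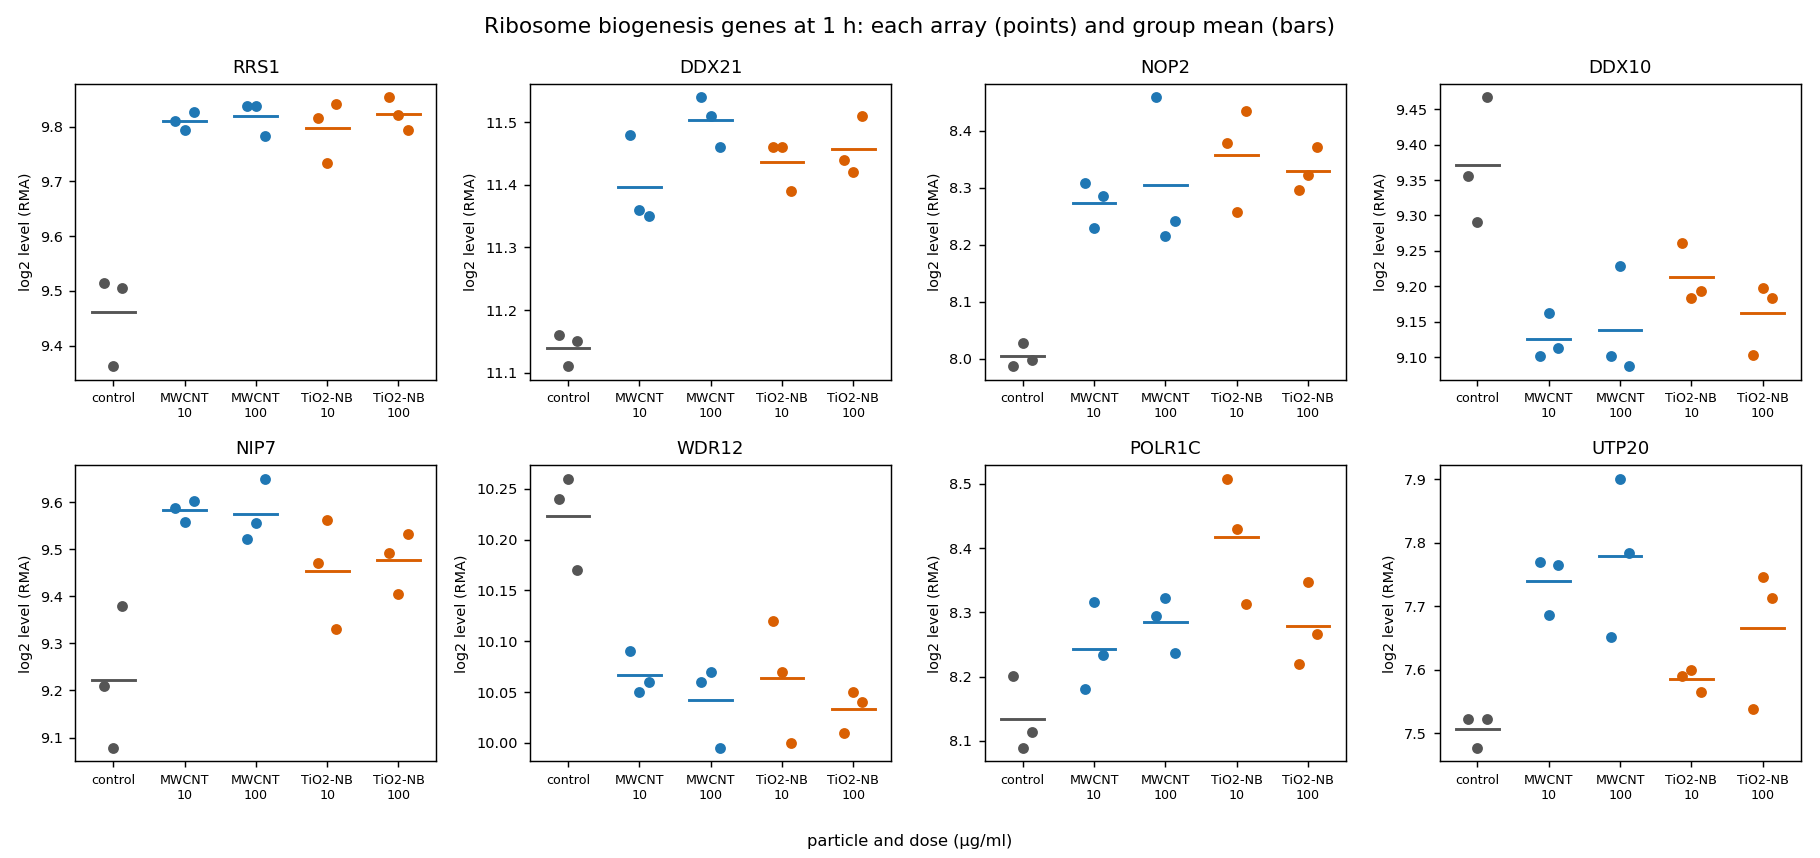
Log2 RMA level of RRS1, DDX21, NOP2, DDX10, NIP7, WDR12, POLR1C and UTP20 on each array at 1 h, in the control, MWCNT and TiO2-NB groups at 10 and 100 µg/ml; points are arrays, bars are group means, and each panel has its own vertical range. For RRS1, DDX21 and NOP2 all 12 exposed arrays lie above the 3 controls, and for WDR12 all 12 lie below them.

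Of the abundant or multifunctional nucleolar proteins, DDX21 was the 1 called of 4, in every exposure at 1 h. DDX21 is an RNA helicase that binds ribosomal DNA and snoRNAs and acts in both transcription and processing of ribosomal RNA. Its controls stood close together at 11.16, 11.11 and 11.15. With MWCNT it stood at 11.48, 11.36 and 11.35 at 10 µg/ml and at 11.54, 11.51 and 11.46 at 100 µg/ml. With TiO2-NB it stood at 11.46, 11.46 and 11.39 at 10 µg/ml and at 11.44, 11.42 and 11.51 at 100 µg/ml. The exposed and control arrays did not overlap. DDX21 rose by 0.25, 0.36, 0.30 and 0.31 (SE 0.051 each; limma adjusted p 0.00315, 9.01e-05, 0.000542 and 0.000283). The call with 10 µg/ml MWCNT narrowly missed the threshold with the 18S covariate (difference 0.23, adjusted p 0.0521). NPM1 and NCL, the most abundant nucleolar chaperones, differed from control by 0.01 to 0.04 and by 0.04 to 0.07 and were not called.

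Of the 12 small subunit factors, UTP20, RRP12 and DDX10 were called in 1 or more exposures. UTP20 is a very large scaffold protein of the small subunit processome, the particle in which the small subunit RNA is first folded. The 1 h controls were 7.522, 7.477 and 7.522. With MWCNT the arrays were 7.769, 7.687 and 7.765 at 10 µg/ml and 7.651, 7.901 and 7.784 at 100 µg/ml. With TiO2-NB they were 7.59, 7.6 and 7.565 at 10 µg/ml and 7.538, 7.746 and 7.713 at 100 µg/ml. All 12 exposed arrays lay above the 3 controls, and the highest array was one with 100 µg/ml MWCNT. UTP20 rose by 0.23 and 0.27 with 10 and 100 µg/ml MWCNT (SE 0.063 each; limma adjusted p 0.0265 and 0.00868), and the TiO2-NB differences of 0.08 and 0.16 did not pass (adjusted p 0.535 and 0.132). Both MWCNT calls were lost with the 18S covariate, where the differences were 0.10 and 0.10 (adjusted p 0.509 and 0.607). The low-dose call was also lost without any 1 control array or exposed replicate 1 or 3, and the high-dose call without exposed replicate 2.

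RRP12, a repeat protein of small subunit maturation and export, had 1 h controls of 7.064, 6.867 and 6.856. With MWCNT it stood at 7.127, 7.152 and 7.078 at 10 µg/ml and at 7.076, 7.301 and 7.169 at 100 µg/ml. With TiO2-NB it stood at 7.143, 7.127 and 7.017 at 10 µg/ml, where 1 array lay inside the control range, and at 7.244, 7.177 and 7.135 at 100 µg/ml. Only the high doses passed the test: RRP12 rose by 0.25 with MWCNT and by 0.26 with TiO2-NB (SE 0.060 each; limma adjusted p 0.00982 and 0.00774), and the low doses gave 0.19 and 0.17 (adjusted p 0.0584 and 0.0973). That the low and high doses differ is not shown by this. The 2 other probe sets of RRP12 differed by at most 0.031 at the high doses, and neither call held for the mean of the 3 probe sets or with the 18S covariate. The MWCNT call was lost without control replicate 2 or 3 or exposed replicate 2, and the TiO2-NB call without control replicate 3.

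DDX10 is a helicase whose yeast counterpart frees a snoRNA from the small subunit precursor. In the controls it stood at 9.355, 9.291 and 9.467. With MWCNT it stood at 9.102, 9.163 and 9.113 at 10 µg/ml and at 9.101, 9.228 and 9.087 at 100 µg/ml. With TiO2-NB it stood at 9.261, 9.184 and 9.194 at 10 µg/ml and at 9.103, 9.198 and 9.184 at 100 µg/ml. All exposed arrays were below all controls. DDX10 fell by 0.24, 0.23, 0.16 and 0.21 on the log2 scale (SE 0.046 each; limma adjusted p 0.00172, 0.00248, 0.0353 and 0.00466). The call with 10 µg/ml TiO2-NB was lost without control replicate 1 or 3 or exposed replicate 2 or 3, and after a second quantile normalisation. The other 9 small subunit factors, among them the early processome proteins HEATR1, WDR3, TBL3, UTP18 and PWP2, were called in no exposure at 1 h, and WDR3 differed from control by -0.04 to 0.01.

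The 2 measured RNA polymerase I subunits gave 1 call each. POLR1C is shared by RNA polymerases I and III. Its 1 h controls were 8.201, 8.089 and 8.114, and with 10 µg/ml TiO2-NB it stood higher at 8.508, 8.429 and 8.313. The other exposures were less clearly apart, at 8.18, 8.316 and 8.233 with 10 µg/ml MWCNT, 8.295, 8.322 and 8.237 with 100 µg/ml MWCNT and 8.22, 8.347 and 8.267 with 100 µg/ml TiO2-NB. POLR1C rose by 0.28 ± 0.057 with 10 µg/ml TiO2-NB (limma adjusted p 0.00226), and its second probe set rose there too, by 0.21 (adjusted p 0.0109). With 100 µg/ml MWCNT the second probe set rose by 0.19 (adjusted p 0.0171) where the first did not pass (0.15, adjusted p 0.107).

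POLR1B is the second-largest subunit of RNA polymerase I. It was a dim gene, with controls of 6.289, 6.145 and 6.423. With MWCNT it stood at 6.717, 6.414 and 6.552 at 10 µg/ml and at 6.695, 6.548 and 6.6 at 100 µg/ml. With TiO2-NB it stood at 6.228, 6.328 and 6.296 at 10 µg/ml and at 6.45, 6.357 and 6.525 at 100 µg/ml, overlapping the controls. It rose by 0.33 ± 0.090 with 100 µg/ml MWCNT (limma adjusted p 0.0247), and the other 3 differences, 0.28, -0.0015 and 0.16, did not pass. The call was lost with the 18S covariate, though the difference was no smaller there, at 0.36 (limma adjusted p 0.176). It was also lost without control replicate 1 or 2 or exposed replicate 1 or 3.

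None of the 4 snoRNP proteins was called at 1 h by limma, and 2, 0, 1 and 0 of them had an unadjusted p under 0.05 in the 4 exposures in the order used above. FBL, the methyltransferase of box C/D snoRNPs, differed by -0.11, -0.06, -0.07 and -0.07. GAR1 and NHP2, which form box H/ACA snoRNPs, differed by 0.02 to 0.09 and by -0.13 to -0.004. NOLC1, a chaperone that shuttles snoRNPs, differed by 0.04 to 0.11.

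The 18S signal also differed between replicates within groups. With 10 µg/ml TiO2-NB, replicate 3 had an 18S 5′ level of 8.504, below the 3 controls at 8.606, 8.62 and 8.809. On that array RRS1 stood at 9.841, DDX21 at 11.39 and NOP2 at 8.434, each above all controls, and NIP7 at 9.331 was within its control range.

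At 1 h none of the 29 genes was called between the doses or between the particles, which does not show that they were equal. In limma 0 of 29 were called between 100 and 10 µg/ml of MWCNT (2 with an unadjusted p under 0.05; 0% of all genes called) and 0 of TiO2-NB (3 unadjusted; 0% of all genes called). The dose difference with the smallest p was 0.14 for PES1 with MWCNT (adjusted p 0.672), followed by 0.11 for DDX21 (adjusted p 0.726, 95% interval 0.00071 to 0.213). For TiO2-NB it was -0.14 for both BYSL and POLR1C (adjusted p 0.743 each). Between the particles 0 were called at 10 µg/ml (5 with an unadjusted p under 0.05), beside 0.0752% of all genes, and 0 at 100 µg/ml (0 unadjusted; 0% of all genes called).

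At 10 µg/ml the difference of MWCNT over TiO2-NB was 0.28 for POLR1B and -0.17 for POLR1C (adjusted p 0.196 each), so the 2 polymerase subunits leaned opposite ways without passing. At 100 µg/ml it was 0.17 for POLR1B (adjusted p 0.582) and 0.11 for UTP20 (adjusted p 0.602). For RRS1 the particle difference was 0.013 at 10 µg/ml (95% interval -0.0823 to 0.108) and -0.0038 at 100 µg/ml (95% interval -0.099 to 0.0914). Both intervals include 0, and each is narrower than the rise of RRS1 itself. For UTP20, which was called with both MWCNT doses and neither TiO2-NB dose, the particle difference at 10 µg/ml was 0.16 (95% interval 0.0244 to 0.286), with an adjusted p of 0.292.

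After 24 h few of the genes were called. RRS1, DDX21, NOP2, NIP7, DDX10 and WDR12, all of them called at 1 h, were called in none of the 4 exposures against the 24 h controls, where their differences ran from -0.15 (NIP7) to 0.11 (NOP2), both with 100 µg/ml TiO2-NB. By limma 0 of 29 genes were called with 10 µg/ml MWCNT (0 with an unadjusted p under 0.05; 0% of all genes called) and 0 with 100 µg/ml MWCNT (0 unadjusted; 0.00836% of all genes called). With 10 µg/ml TiO2-NB 0 were called (1 unadjusted; 0.0502% of all genes called, 0.0167% higher and 0.0334% lower). With 100 µg/ml TiO2-NB UTP20 and TSR1 fell and no gene rose, so 2 of 29 were called (6.9%), beside 3.15% of all genes, 0.853% being higher and 2.3% lower. In the same arrays the probe set for the middle of 28S RNA stood at 9.618, 9.648 and 9.488, below the controls at 10.03, 9.917 and 9.981 (exact permutation p 0.1, the smallest possible), and its part in these calls was not tested.

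UTP20 at 24 h stood at 7.393, 7.505 and 7.531 in the controls. With MWCNT it stood at 7.575, 7.459 and 7.503 at 10 µg/ml and at 7.376, 7.524 and 7.381 at 100 µg/ml. With TiO2-NB it stood at 7.358, 7.457 and 7.418 at 10 µg/ml and at 7.265, 7.087 and 7.087 at 100 µg/ml. The 3 arrays of the high TiO2-NB dose lay below all 12 others. UTP20 fell by 0.33 on the log2 scale against control (SE 0.063, limma adjusted p 0.0015). It was also the one member called between the TiO2-NB doses, falling by 0.26 from 10 to 100 µg/ml (SE 0.063, adjusted p 0.0228; 1.62% of all genes called, 1.52% lower), and between the particles at 100 µg/ml, where it was higher with MWCNT by 0.28 (SE 0.063, adjusted p 0.0107; 2.69% of all genes called, 1.82% higher and 0.869% lower). With the spread of the compared groups alone these 3 calls were lost (adjusted p 0.0763, 0.356 and 0.17). The dose call was lost without replicate 2 or 3 of either TiO2-NB dose, and the particle call without MWCNT replicate 2 or TiO2-NB replicate 2 or 3.

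TSR1, a protein related to translational GTPases that acts late in small subunit maturation, gave a less even result. Its most abundant probe set stood at 8.354, 8.371 and 8.384 in the 24 h controls and at 8.25, 7.952 and 7.869 with 100 µg/ml TiO2-NB, where replicate 1 lay well above the other two. It fell by 0.35 (SE 0.084, limma adjusted p 0.0155). Its 2 other probe sets differed by 0.025 and -0.017 (adjusted p 0.912 and 0.945), and the mean of the 3 probe sets did not pass (-0.11, adjusted p 0.311). The call was lost without control replicate 2 or 3 or TiO2-NB replicate 2 or 3. With the other exposures the probe set stood at 8.372, 8.336 and 8.281 for 10 µg/ml MWCNT, 8.395, 8.208 and 8.254 for 100 µg/ml MWCNT and 8.322, 8.394 and 8.154 for 10 µg/ml TiO2-NB.

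**Figure D3:**
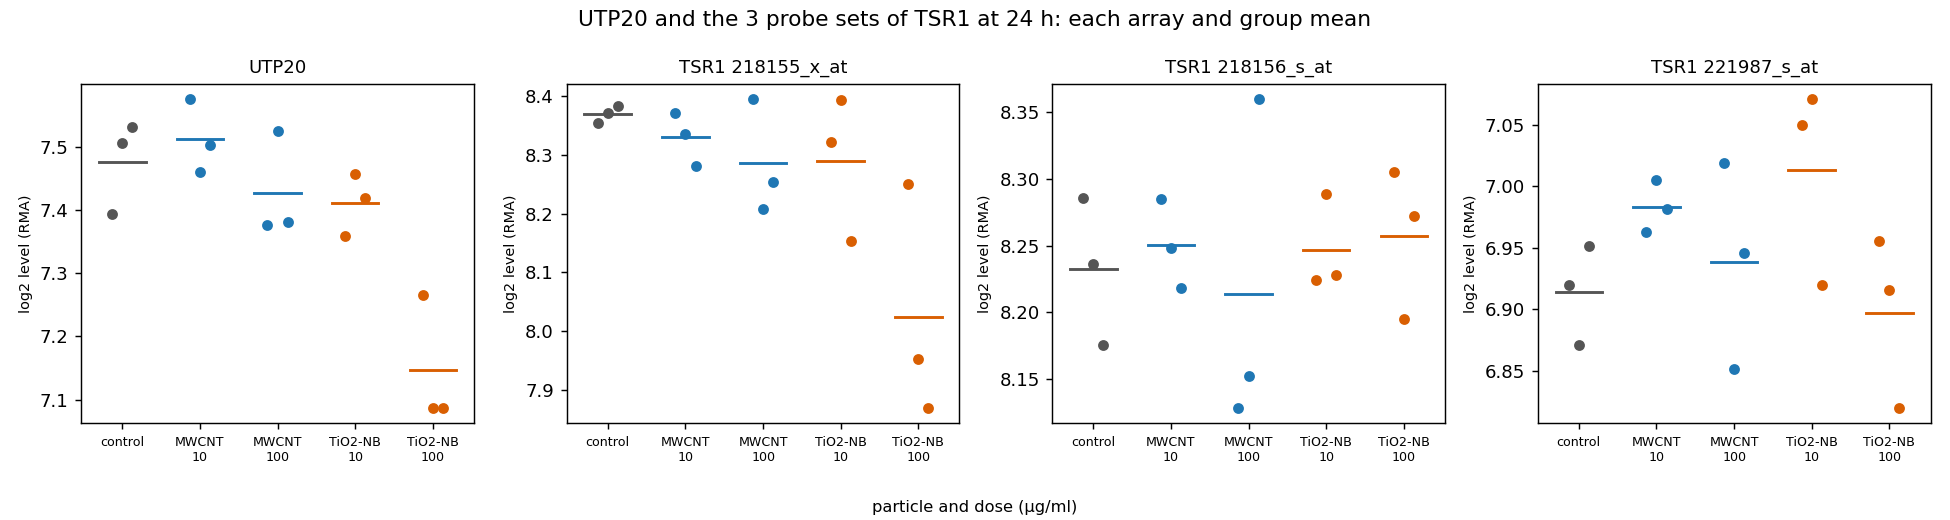
Log2 RMA level of UTP20 and of the 3 probe sets of TSR1 on each array at 24 h, in the control, MWCNT and TiO2-NB groups at 10 and 100 µg/ml; points are arrays and bars are group means. UTP20 is lowest with 100 µg/ml TiO2-NB (7.265, 7.087 and 7.087), and of the TSR1 probe sets the most abundant one is lower there while the others differ from control by 0.025 and -0.017.

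The genes next in the test of any difference at 24 h did not pass it. That test called UTP20 alone among the 29 (adjusted p 0.00301), beside 2.77% of all genes. NCL, the chaperone nucleolin, stood at 10.91, 10.97 and 10.93 in the controls and at 10.83, 10.76 and 10.89 with 100 µg/ml TiO2-NB (adjusted p of the test 0.21). RRP12 stood at 6.722, 6.905 and 6.925 in the controls and at 7.092, 7.015 and 7.023 with 100 µg/ml TiO2-NB, above every control (adjusted p 0.376). MRTO4, a large subunit factor related to the ribosomal stalk protein, stood at 8.119, 8.121 and 8.133 and at 8.077, 7.939 and 7.89 (adjusted p 0.467). These groups are apart by less than the threshold asks.

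POLR1B stood at 6.313, 6.392 and 6.363 in the 24 h controls and at 6.333, 5.999 and 6.032 with 100 µg/ml TiO2-NB (adjusted p 0.582). NIP7 stood at 8.869, 8.817 and 8.757 and at 8.807, 8.6 and 8.595 (adjusted p 0.616). BYSL, or bystin, which small subunit maturation needs, stood at 7.699, 7.625 and 7.668 and at 7.824, 7.818 and 7.827 (adjusted p 0.622). In POLR1B and NIP7, as in UTP20, TSR1 and MRTO4, replicate 1 of the high TiO2-NB dose was closer to the controls than replicates 2 and 3.

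In the other 24 h exposures the differences with the smallest p were small. With 10 µg/ml MWCNT they were 0.10 for NOP16, 0.08 for BYSL and -0.08 for NHP2 (adjusted p 1.0 each). At 100 µg/ml they were -0.13 for RRP1B, 0.09 for BYSL and -0.08 for UTP18 (adjusted p 0.931, 0.931 and 0.957). Those with 10 µg/ml TiO2-NB were -0.09 for NCL, 0.09 for NOP14 and 0.08 for RRS1 (adjusted p 0.647, 0.714 and 0.737). None of these passed the adjusted threshold. Between the MWCNT doses at 24 h limma called 0 members (1 with an unadjusted p under 0.05; 0% of all genes called), with WDR3 at -0.10 (adjusted p 0.736) and TBL3 at -0.11 (adjusted p 0.751) first. Between the particles at 10 µg/ml it called 0 (2 unadjusted; 0.0418% of all genes called, 0.0251% higher and 0.0167% lower), with NCL at 0.12 (adjusted p 0.706) and MRTO4 at 0.16 (adjusted p 0.967) first.

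Whether an exposure effect differed between the times was tested directly for the high doses, as the effect at 24 h minus the effect at 1 h. For 100 µg/ml MWCNT 3 of 29 genes were called, all lower at 24 h, beside 3.38% of all genes (1.97% higher, 1.4% lower). DDX21 changed by -0.42 ± 0.073 (limma adjusted p 0.00247), RRS1 by -0.38 ± 0.065 (adjusted p 0.00208) and NOP2 by -0.30 ± 0.081 (adjusted p 0.0404). These are 3 genes that rose at 1 h. UTP20, NIP7 and POLR1B had differences of -0.32, -0.35 and -0.43 and did not pass (adjusted p 0.0532, 0.0687 and 0.0688). The NOP2 call was lost without any 1 array of the 1 h controls or of the 24 h MWCNT group, and without replicate 1 of the 1 h MWCNT group or replicate 1 or 2 of the 24 h controls.

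The same test with 100 µg/ml TiO2-NB called 6 of 29 genes (1 higher, 5 lower), beside 6.5% of all genes (4.41% higher, 2.09% lower). UTP20 had the largest change at -0.49 ± 0.090 (limma adjusted p 0.00143), followed by TSR1 at -0.40 ± 0.12 (adjusted p 0.0438). NIP7 changed by -0.40 ± 0.10 (adjusted p 0.0194), DDX21 by -0.40 ± 0.073 (adjusted p 0.00134) and RRS1 by -0.32 ± 0.065 (adjusted p 0.003). WDR12, lower than control at 1 h, changed by 0.24 ± 0.057 (adjusted p 0.0131). NOP2 at -0.22 did not pass here (adjusted p 0.123). With the mean of its probe sets TSR1 changed by -0.095 (adjusted p 0.502). The TSR1 call was also lost without any 1 control array or without TiO2-NB replicate 2 or 3 of either time. The NIP7 call was lost without replicate 2 of the 1 h controls, replicate 1 of the 24 h controls or TiO2-NB replicate 2 or 3 at 24 h, and with the spread of the compared groups alone 3 genes were called.

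The controls themselves differed between the times, and by more than most exposures. In the 24 h controls 8 of 29 genes were lower than in the 1 h controls and 0 were higher (27.6% called), beside 21.1% of all genes, 12.3% being lower. The median difference of the 29 genes was -0.12, beside 0.0056 over all genes. The 8 were 5 of 7 large subunit factors (RRS1, MRTO4, NIP7, NOP16, PES1), 2 of 4 snoRNP proteins (GAR1, NOLC1) and 1 of 12 small subunit factors (BYSL). PES1 and NOLC1 and the 2nd to 4th probe sets of NOP16 are named here after their values were seen. What differed between these cultures besides the hours in fresh medium was not given, so the time in culture and anything handled with it cannot be told apart. The mean of 7 proliferation markers ran from 9.514 to 9.685 in the 1 h controls and from 9.63 to 9.714 in the 24 h controls, with 2 of the 7 called higher and 0 lower at 24 h (limma). Of 12 enterocyte markers 4 were called higher and 0 lower (list means 10.09 to 10.19 at 1 h and 10.19 to 10.24 at 24 h). Of 7 leukocyte markers 3 were called higher and 1 lower (list means 5.867 to 5.914 and 5.944 to 6.043). The probe set for the middle of 28S RNA averaged 10.28 at 1 h and 9.976 at 24 h, with no overlap (difference -0.307, exact permutation p 0.1, the smallest possible). The part of these in the members' change was not tested.

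RRS1 was lower by the most, at 8.91, 8.896 and 8.917 in the 24 h controls against 9.515, 9.362 and 9.505 at 1 h. It fell by 0.55 on the log2 scale (SE 0.046, limma adjusted p 5.37e-09), which is 1.47-fold. MRTO4 stood at 8.665, 8.57 and 8.638 at 1 h and at 8.119, 8.121 and 8.133 at 24 h, a change of -0.50 ± 0.073 (adjusted p 2.16e-05). Both genes had no overlap between the times. NIP7 fell from 9.21, 9.078 and 9.38 to 8.869, 8.817 and 8.757, a change of -0.41 ± 0.073 (adjusted p 0.000247). BYSL fell from 8.101, 8.128 and 7.928 to 7.699, 7.625 and 7.668, a change of -0.39 ± 0.058 (adjusted p 2.86e-05).

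GAR1, a core protein of the snoRNPs that guide pseudouridine formation, stood at 9.101, 9.038 and 9.121 at 1 h and at 8.651, 8.705 and 8.76 at 24 h. Its change was -0.38 ± 0.042 (limma adjusted p 4.33e-07). NOP16, a large subunit factor, fell by 0.26 (SE 0.051, adjusted p 0.000704), but its 3 other probe sets, at -0.092, -0.030 and 0.060, were not called. PES1 and NOLC1 changed by less, by -0.16 and -0.13 (adjusted p 0.0198 and 0.0435). The PES1 call was lost without replicate 1 or 2 of either control group and the NOLC1 call without any 1 control array but replicate 2 at 1 h, and neither held after a second quantile normalisation. For TSR1 the most abundant probe set did not pass (-0.18, adjusted p 0.146) while its 2 others fell by 0.33 and 0.24 (adjusted p 6.1e-05 and 0.00276). Of the 8 genes that rose in some exposure at 1 h and the 8 that were lower in the 24 h controls, RRS1 and NIP7 were in both.

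**Figure D4:**
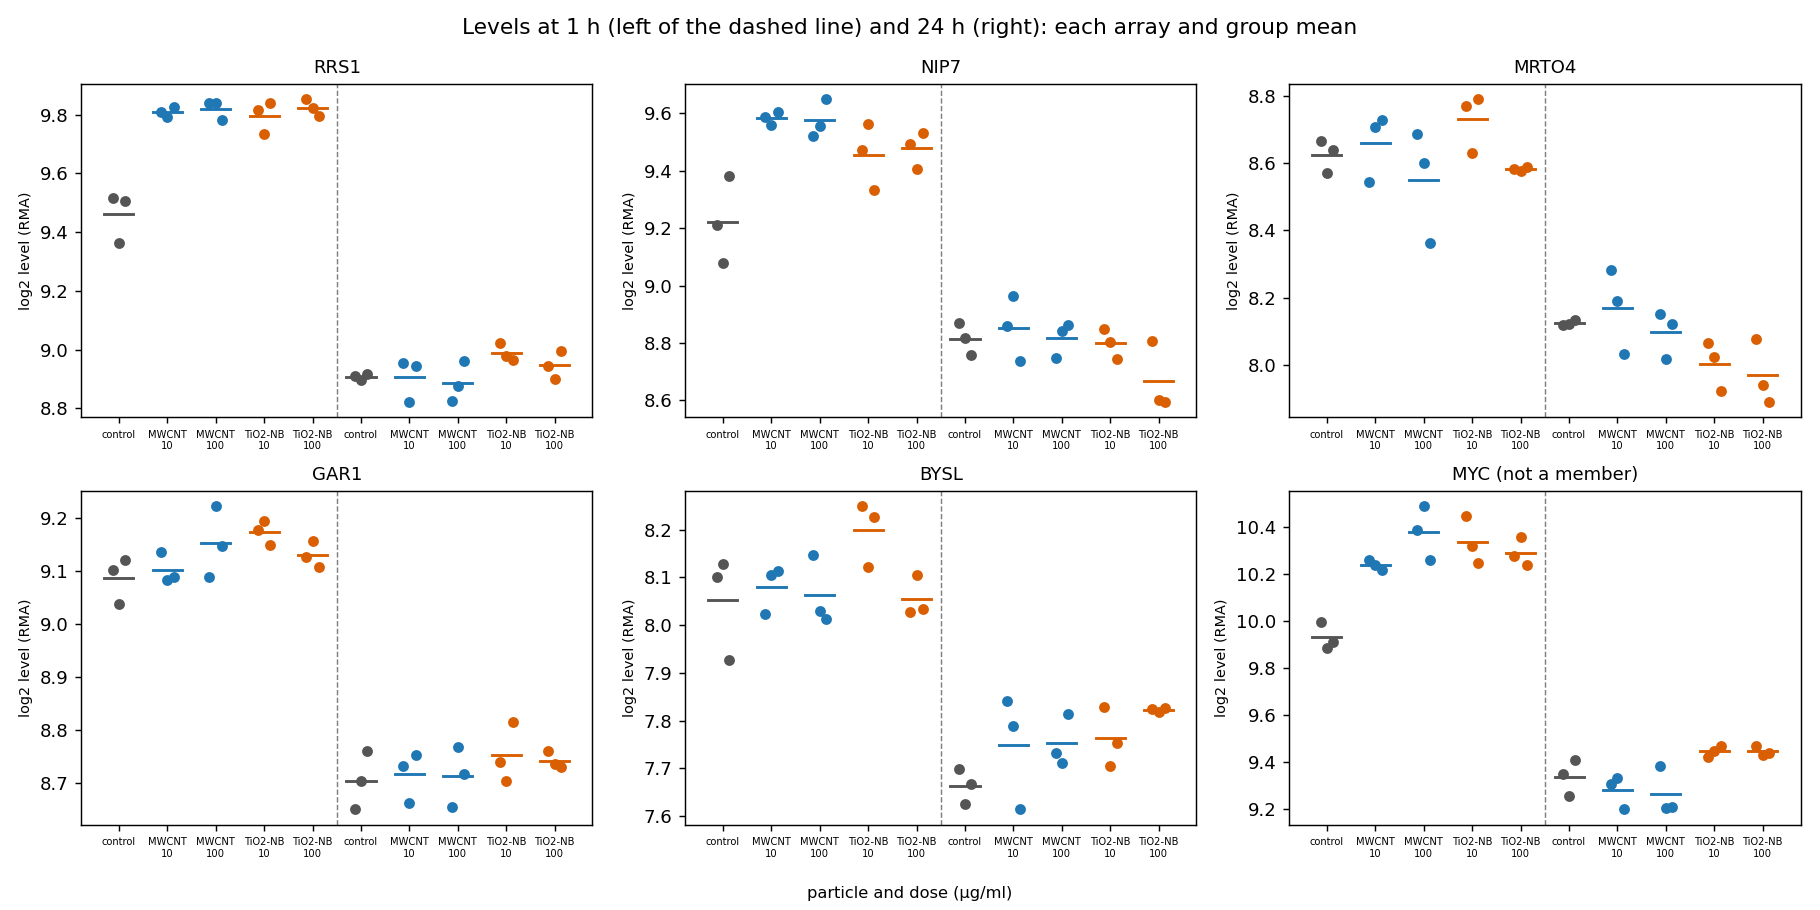
Log2 RMA level of RRS1, NIP7, MRTO4, GAR1, BYSL and MYC on each array in the 10 groups, with a dashed line between the 1 h and the 24 h groups; points are arrays and bars are group means. In each panel every 1 h array lies above every 24 h array, and among the 1 h groups the exposed arrays of RRS1 and MYC lie above the controls.

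MYC and its partners were followed because many genes of this pathway are known MYC targets. Of the 10 network genes 9 were measured. MYC stood at 9.999, 9.889 and 9.914 in the 1 h controls and between 10.22 and 10.49 on the 12 exposed arrays at 1 h. It rose by 0.31, 0.44, 0.41 and 0.36 with 10 and 100 µg/ml MWCNT and 10 and 100 µg/ml TiO2-NB (SE 0.060 each; limma adjusted p 0.0025, 5.04e-05, 9.17e-05 and 0.000326). In the 24 h controls it stood at 9.352, 9.255 and 9.41, lower than at 1 h by 0.59 (fell by 0.59, adjusted p 9.89e-08). The effect of the high dose differed between the times for MWCNT (-0.52, adjusted p 0.00121) and did not pass for TiO2-NB (-0.25, adjusted p 0.0832).

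MXI1 encodes a MAX partner that opposes MYC. It fell at 1 h by 0.85, 0.73, 0.81 and 0.78 on the log2 scale (SE 0.084 each), more than any member of the list moved, and was higher by 0.46 in the 24 h controls than in the 1 h controls. Its high-dose effect was higher at 24 h than at 1 h by 0.72 with MWCNT and by 0.73 with TiO2-NB. MNT, another repressor of the network, fell by 0.22 with 10 µg/ml MWCNT and by 0.19 with 100 µg/ml TiO2-NB at 1 h (adjusted p 0.025 and 0.0434), and MXD3 fell by 0.21 with 100 µg/ml MWCNT (adjusted p 0.0191). MYCN was lower in the 24 h controls by 0.29 (fell by 0.29, adjusted p 0.0193). MAX, MYCL, MXD1 and MLX were called in none of these comparisons.

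Other genes of the pathway, not among the 38, are given beside them. Of 130 listed, 104 were measured. At 1 h 11 (9 higher, 2 lower), 15 (12 higher, 3 lower), 12 (9 higher, 3 lower) and 13 (9 higher, 4 lower) were called in the order of exposures used above. These are 10.6%, 14.4%, 11.5% and 12.5%, beside 7.86%, 9.44%, 9.52% and 10.5% of all genes. The medians were -0.0073, 0.011, 0.034 and -0.0072. EXOSC9, GTPBP4, MAK16, NVL and WDR43 were higher in all 4 exposures. WDR43, a processome subunit, rose by 0.37, 0.35, 0.27 and 0.21 (SE 0.042 each, limma adjusted p from 5.61e-06 to 0.00159). MAK16 and NVL, both of the large subunit path, rose by 0.20 and 0.21 with 100 µg/ml MWCNT. RRN3, which brings RNA polymerase I to its promoter, rose by 0.27 with 10 µg/ml MWCNT and by 0.28 with 100 µg/ml TiO2-NB, and TAF1A, of the promoter factor SL1, by 0.47 with 10 µg/ml MWCNT. PAK1IP1 rose by 0.26 with 100 µg/ml MWCNT, and NOL9, an RNA kinase, by 0.28 with 100 µg/ml TiO2-NB. Lower genes included NMD3, the export adaptor of the large subunit (-0.25 with 10 µg/ml TiO2-NB), and TCOF1, whose protein treacle acts in ribosomal DNA transcription (-0.19 and -0.20 with 10 and 100 µg/ml TiO2-NB). SHQ1 and PIH1D1, which help to assemble snoRNPs, fell by 0.19 and 0.13 with 10 µg/ml MWCNT.

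At 24 h 0 of the 104 were called by limma with 10 or 100 µg/ml MWCNT or 10 µg/ml TiO2-NB (1, 3 and 10 with an unadjusted p under 0.05). The shares of all genes were 0%, 0.00836% and 0.0502%. With 100 µg/ml TiO2-NB 4 were called (3.85%), near the 3.15% of all genes. ESF1, a processome-associated protein, fell there by 1.19 (SE 0.15, limma adjusted p 6.57e-06), from a mean of 8.12 to 6.93. KRR1 fell by 0.35 (adjusted p 0.00286) and DDX52 by 0.31 (adjusted p 0.018), while the GTPase BMS1 rose by 0.17 (adjusted p 0.0423). All 4 are listed as small subunit factors, which make up 35 of the 104 genes here, and a pattern by role was not tested. In the 24 h controls 45 of the 104 differed from the 1 h controls (6 higher, 39 lower, median -0.12), beside 21.1% of all genes (8.79% higher, 12.3% lower). UTP3, RCL1, DNTTIP2 and PAK1IP1 were lower by 0.65, 0.56, 0.51 and 0.51 (fell by these sizes). TAF1A, NOC3L, UTP25 and NVL were higher by 0.56, 0.47, 0.35 and 0.33. The genes for the proteins of the finished particle gave few calls: of 55 cytosolic ribosomal protein genes limma called 1, 0, 0 and 0 at 1 h (5, 2, 2 and 5 with an unadjusted p under 0.05) and 1 between the control times.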

How the data were processed

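RNA (3 µg of total RNA per array) was hybridised to 30 Affymetrix arrays. The deposited values are log2 signals from RMA, a tool the submitters' processing notes name without a version. RMA subtracts background, forces arrays to one common distribution and combines the probes of a set, so a shift shared by all genes could be hidden. No detection call was used. Of 22277 probe sets 62 controls were left out, and 19064 of the rest carried 1 gene symbol, 1043 several and 2108 none. A model with a mean per group was fitted with limma 3.58.1 (R 4.3.3) to all 30 arrays (20 residual degrees of freedom), with eBayes and Benjamini-Hochberg adjustment over 22215 probe sets; the threshold was 0.05. The number of arrays limits the precision. The script was tested on simulated data.

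The members, gene lists, tests and alternatives were chosen with earlier results of these data known. Values per array are given for the 8 members with the smallest F-test p at each time. Other members are named by size among those called (up to 6 each way against control, up to 5 each way between doses, particles and times), or, where none passed, as the 3 or 2 with the smallest p. Other pathway genes are named by the smallest p, up to 4 each way, and network genes all. Some called members beyond these rules (RRP12 and POLR1B by array, PES1, NOLC1) and genes higher in all exposures were named once their values had been seen. Alternatives tried were the compared groups alone, a replicate block, the dimmest probe sets dropped (1 in 3), a second quantile normalisation, intensity-trended robust variances, the mean of a gene's probe sets, 18S as a covariate, and leaving out each array.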

Additional observations from a re-analysis of the deposited data

Results flagged for a closer look

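These results were picked out because the effect of the high dose at 24 h minus that at 1 h passed limma's adjusted threshold. With 100 µg/ml MWCNT this was the case for DDX21 (-0.42, SE 0.073, adjusted p 0.00247), NOP2 (-0.30, SE 0.081, adjusted p 0.0404) and RRS1 (-0.38, SE 0.065, adjusted p 0.00208). With 100 µg/ml TiO2-NB it was the case for DDX21 (-0.40, SE 0.073, adjusted p 0.00134), UTP20 (-0.49, SE 0.090, adjusted p 0.00143) and TSR1 (-0.40, SE 0.12, adjusted p 0.0438). It also held there for WDR12 (0.24, SE 0.057, adjusted p 0.0131), RRS1 (-0.32, SE 0.065, adjusted p 0.003) and NIP7 (-0.40, SE 0.10, adjusted p 0.0194). Both particles were set against the same control arrays at each time, so the values for DDX21 and RRS1 are not independent of each other. For UTP20 and TSR1 the 1 h differences, 0.16 and 0.06, did not pass, and the 24 h falls of 0.33 and 0.35 did. The TSR1 value was -0.095 (adjusted p 0.502) with the mean of its probe sets, and its call was kept under 7 of 19 alternatives.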

How the results depend on the processing

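No value changed sign in a call under the alternatives run. With the spread of the compared groups alone, the members called fell to 0, 1, 1 and 3 in the 4 exposures at 1 h (10 and 100 µg/ml MWCNT, 10 and 100 µg/ml TiO2-NB), to 0 for 100 µg/ml TiO2-NB at 24 h, to 0 between the TiO2-NB doses and to 0 between the particles at 100 µg/ml at 24 h, to 3 in the TiO2-NB time interaction and to 3 in the test of any difference at 1 h. With the 18S covariate they were 4 for both MWCNT doses at 1 h and 4 in the test of any difference at 1 h. With 10 µg/ml MWCNT not all of the 4 were among the calls made without the covariate. The MWCNT time interaction had 7 members called without the dimmest probe sets (1 in 3), 7 with trended robust variances and 5 with the mean of a gene's probe sets. The test of any difference at 24 h called 2 with trended robust variances, and 100 µg/ml TiO2-NB at 24 h called 1 with the mean of a gene's probe sets.

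Leaving out 1 array at a time, the counts ranged from 5 to 7, 7 to 9, 5 to 6 and 6 to 7 in the 4 exposures at 1 h and from 1 to 3 for 100 µg/ml TiO2-NB at 24 h. They ranged from 0 to 3 between the TiO2-NB doses at 24 h, 0 to 2 between the particles at 100 µg/ml at 24 h, 2 to 4 and 4 to 7 in the MWCNT and TiO2-NB time interactions, and 6 to 8 between the control times. The test of any difference gave 4 to 10 at 1 h (4 without control replicate 2, 6 without control replicate 3) and 0 to 2 at 24 h (0 without replicate 2 or 3 of 100 µg/ml TiO2-NB, 2 without replicate 1). Between the TiO2-NB doses 3 were called without replicate 1 of the high dose, and between the particles 2 without it. The remaining counts stayed at 0. The cause of these shifts was not tested, and each of these fits also had 1 array fewer.

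Whether the replicate numbers pair the samples is not settled by these data. Deviations of same-numbered arrays from their group means correlated between -0.203 and 0.209, with medians from -0.0288 to 0.0289 by number and time. The medians between differently numbered arrays ran from -0.0196 to 0.00349. With the replicate block 9 members were called between the control times in place of 8, and the other counts were equal. Single member calls held in 50 of 50 with the block, 50 with the low filter, 50 with trended variances, 47 after a second quantile normalisation, 44 with mean probe sets, 38 with 18S, 16 with the compared groups alone, and in 283 of 354 fits without 1 array.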
